A study of Homo sapiens with 11 samples.

Results

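Intragenic sites of divergent transcription were examined in Jurkat cells, clone E6-1, a human T cell line that came from an acute lymphoblastic leukaemia. A member was a site on chromosomes 1 to 22 or X that lay more than 1 kb from every gene start and overlapped gene bodies of one strand only, with gene bodies and starts taken from the authors' gene table. Each gene had a single start, at the outer end of its body. The start of a shorter transcript inside a gene was thus not excluded, and sites at it count as intragenic. The dieldrin list held 76900 members among 118474 deposited sites and the DMSO list held 73552 members among 113689, which makes 150452 members of 232163 sites in all. Each list came from 1 library of ribosomal RNA-depleted total RNA, from cells given dieldrin, an organochlorine insecticide, at 100 µM in DMSO, or DMSO, for 30 min. The cells' mRNA had been measured in 9 poly(A)-enriched libraries, 3 each from cells given dieldrin at 100 µM, phorbol myristate acetate (PMA, an activator of protein kinase C) at 100 µM, or DMSO, also for 30 min. All 11 libraries came from a single cell line, and the labels do not say whether replicates were separate cultures.

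Divergent transcription is the start of RNA synthesis in both directions from nearly the same position. RNA polymerase II does this at many promoters and at many enhancers, and an enhancer can lie inside the body of a gene that is itself transcribed. One of the RNAs is often short-lived and lacks a poly(A) tail, which is why total RNA can show it where poly(A)-enriched RNA does not. Inside a gene, one of the RNAs runs along the host transcript and only the other, antisense, RNA is apart from it.

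The cells carried the RNA of T cells. All 10 T cell markers examined stood at or above 1 CPM in the poly(A) libraries, between 1.02 CPM and 834 CPM, with the kinase LCK highest. Of 4 markers each, 1 B cell marker (CD79A, 34.6 CPM), no myeloid, no erythroid or platelet marker and 1 epithelial or fibroblast marker (COL1A1, 2 CPM) reached 1 CPM. The site files gave positions alone, without a score, read count or strand, and no depth was known for either library. With 1 library per list, no difference between the lists has a replicate check, and every difference below describes these libraries. Intervals are 95% Wilson intervals and cover counting error only, while neighbouring sites of a gene are not independent.

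Intragenic sites in one-strand genes were the largest class of both lists. They made up 65.0% of the 118385 dieldrin sites on these chromosomes (interval 64.7% to 65.2%) and 64.7% of the 113601 DMSO sites (64.5% to 65.0%). The dieldrin list had 1.05 times as many of them as the DMSO list. For comparison, the ratio of dieldrin to DMSO was 1.01 for sites within 1 kb of a gene start, 1.02 where opposite-strand genes overlap, and 1.09 for intergenic sites. On 20 of 23 chromosomes the dieldrin list held more members, with ratios from 0.99 on chromosome 16 to 1.10 on chromosome 6. The median width was 249 bp in the dieldrin list and 247 bp in the DMSO list, and members covered 24987 kb with dieldrin and 23528 kb with DMSO.

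Whether most members were found in 1 list or in both depended on how near a counterpart had to be. A counterpart that shared at least 1 bp with any site of the other list was present for 36.9% of dieldrin members (interval 36.6% to 37.2%) and 38.8% of DMSO members (38.4% to 39.1%). That left 48525 members in the dieldrin list only and 45035 in the DMSO list only. When a gap of up to 500 bp was allowed, the share with a counterpart was 55.3% in the dieldrin list and 57.3% in the DMSO list, and when at least 50% of each site had to overlap it was 15.2% with dieldrin and 15.9% with DMSO. Among sites within 1 kb of a gene start, 65.5% in the dieldrin list and 66.0% in the DMSO list had a counterpart. Among intergenic sites the share was 29.5% with dieldrin and 32.0% with DMSO. Where opposite-strand genes overlap it was 50.3% with dieldrin and 52.1% with DMSO. Over all sites on these chromosomes it was 41.8% with dieldrin and 43.7% with DMSO. Members found in both lists were wider: their median width was 299 bp with dieldrin and 294 bp with DMSO, against 230 bp for members found in the dieldrin list only and 227 bp for members found in the DMSO list only. A wider site meets the 1 bp rule more easily, and the part of the rule in this difference was not tested. Just inside the limit, at 1 to 1.2 kb from a start, 44.3% of dieldrin and 47.9% of DMSO members had a counterpart, and just outside it, at 0.8 to 1 kb, 46.9% of dieldrin and 50.5% of DMSO sites had one.

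The strand of the host gene divided the members more sharply than the treatment did. The host was the longest overlapping gene, and genes of the minus strand hosted 56947 dieldrin members, or 74.1% (interval 73.7% to 74.4%), and 53405 DMSO members, or 72.6% (72.3% to 72.9%). Genes of the plus strand hosted 19953 dieldrin and 20147 DMSO members. The stretches that could hold a member, one-strand gene body more than 1 kb from every start, were of like size on the minus and plus strands, 691 Mb in 13166 genes and 715 Mb in 13334 genes. The genes themselves were also alike, with a median length of 21126 bp on the minus strand and 21780 bp on the plus strand, and a median mean normalised count of 17.7 on the minus and 18.7 on the plus strand. Per 100 kb of these stretches there were 8.24 dieldrin sites in minus-strand genes and 2.79 in plus-strand genes, a ratio of 2.95. In the DMSO list there were 7.72 sites per 100 kb in minus-strand genes and 2.82 in plus-strand genes, a ratio of 2.74. On each of the 23 chromosomes the minus-strand share of the members of both lists together was between 69.3% (chromosome 19) and 80.0% (chromosome 13). The split was looked at after the data had been seen. Which reads the authors' site caller used on each strand is not given in the sources used here, and its part in the split was not tested.

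The split varied with the level of the gene and was widest in the most highly expressed genes. The level here is the mean normalised count over the poly(A) libraries, which is not divided by gene length, and within each range of it the genes of both strands had like median lengths. In minus-strand genes the density of dieldrin sites climbed over the whole range, from 0.53 per 100 kb at a mean below 1 through 8.06 at 100 to 1000 to 34.8 at 10000 or more. In plus-strand genes it climbed from 0.29 below 1 to 4.77 at 100 to 1000 and then stayed level, at 5.18 at 1000 to 10000 and 4.32 at 10000 or more. The ratio of minus-strand to plus-strand density in the dieldrin list was thus 1.86 at a mean below 1, 1.35 at 1 to 10, 1.16 at 10 to 100, 1.69 at 100 to 1000, 3.66 at 1000 to 10000 and 8.07 at 10000 or more. The DMSO list gave 1.90, 1.42, 1.20, 1.61, 3.26 and 6.62 over the same 6 ranges. In both lists the ratio was thus lowest at 10 to 100, and higher both below and above. Among genes at 10000 or more, 94.96% on the minus strand and 47.9% on the plus strand held a dieldrin member, and 95.2% on the minus strand and 51.9% on the plus strand held a DMSO member.

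**Figure D1:**
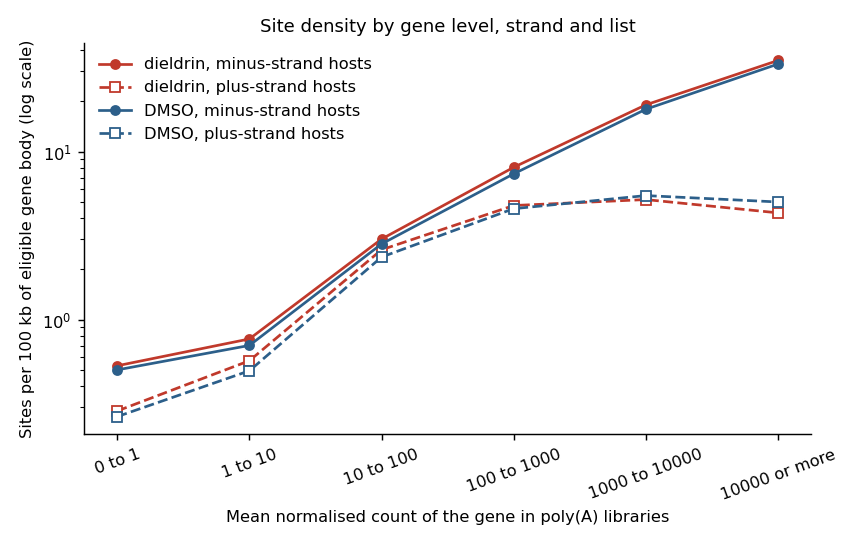
Sites per 100 kb of eligible gene body (y axis, log scale) against the mean normalised count of the gene in poly(A) libraries (x axis, 6 ranges), for the dieldrin list (red) and the DMSO list (blue), in minus-strand hosts (solid, filled circles) and plus-strand hosts (dashed, open squares). The minus-strand lines climb to 34.8 with dieldrin and 33.2 with DMSO, while the plus-strand lines end at 4.32 with dieldrin and 5.01 with DMSO.

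Width separated the strands as well. Sites of 200 to 250 bp lay in minus-strand hosts in 86.7% of cases in the dieldrin list and 85.7% in the DMSO list. Sites of 50 to 100 bp did so in 43.6% of cases with dieldrin and 42.3% with DMSO. Widths of 100 to 300 bp took in 60.6% of minus-strand and 38.1% of plus-strand members in the dieldrin list, and 60.4% of minus-strand and 38.2% of plus-strand members in the DMSO list. Plus-strand widths were spread almost evenly up to 500 bp, and fewer sites lay beyond. Sharing differed between the strands too. In minus-strand hosts 39.7% of dieldrin and 42.5% of DMSO members had a counterpart, and in plus-strand hosts 28.9% of dieldrin and 28.8% of DMSO members did. Sites near gene starts were split far less: 55.1% with dieldrin and 54.7% with DMSO lay nearest to the start of a minus-strand gene.

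**Figure D2:**
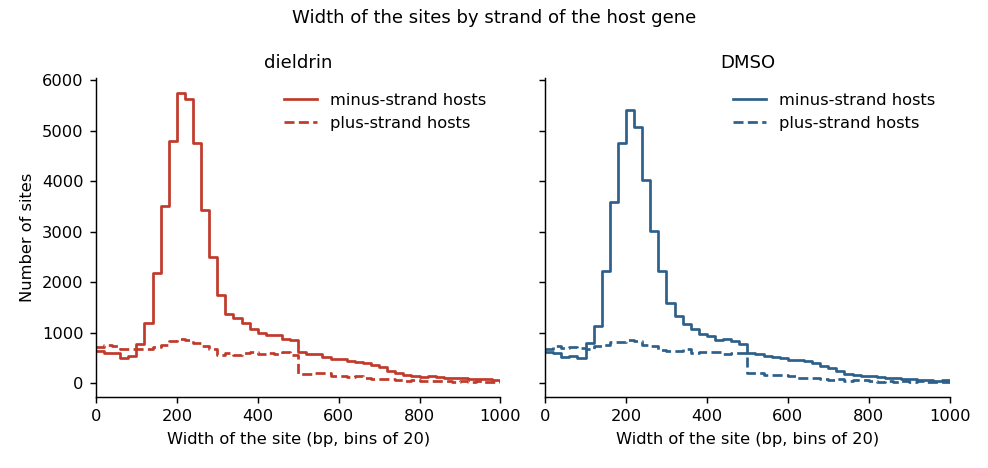
Number of members (y axis) by width in bins of 20 bp (x axis) for the dieldrin list (left) and the DMSO list (right), in minus-strand hosts (solid) and plus-strand hosts (dashed). Minus-strand members peak near 200 to 250 bp, where 86.7% of dieldrin and 85.7% of DMSO members have a minus-strand host, and the plus-strand counts step down at 500 bp.

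The larger number of members in the dieldrin list lay in minus-strand hosts. These held 3542 more dieldrin than DMSO members, a ratio of 1.07, and 21 of 23 chromosomes had more with dieldrin. Plus-strand hosts held 19953 dieldrin members against 20147 DMSO members, a ratio of 0.99, and 11 of 23 chromosomes had more with dieldrin. Without replicate libraries, the ratios cannot be set against the spread between libraries.

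Members gathered towards the ends of their hosts. The relative position is the distance of the middle of the site from the gene start along transcription over the length of the gene, 0 at the start and 1 at the end. Its median was 0.631 in the dieldrin list and 0.634 in the DMSO list, and 61.8% of dieldrin and 61.9% of DMSO members lay nearer to the end than to the start. The outer starts were kept out by the rule, so genes were cut into 10 equal parts and densities were taken over the eligible stretches of each. In minus-strand genes the last 10% of the gene held 17.3 dieldrin sites per 100 kb against 6.01 in the first 10%, and 17.1 DMSO sites against 5.67. In plus-strand genes the last 10% held 4.64 dieldrin sites per 100 kb against 2.08 in the first 10%, and 4.90 DMSO sites against 2.22. Both strands and both lists thus showed a higher density in the last 10% than in the first 10%, by 2.87 times (dieldrin) and 3.01 times (DMSO) in minus-strand genes and by 2.23 times (dieldrin) and 2.21 times (DMSO) in plus-strand genes.

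Members found in both lists lay nearer to the end than members found in 1 list. Their median relative position was 0.713 with dieldrin and 0.714 with DMSO, against 0.585 for members of the dieldrin list only and 0.585 for members of the DMSO list only. Within 1 kb of the gene end 62.6% of dieldrin and 59.1% of DMSO members had a counterpart. At 50 to 100 kb from the end 25.7% of dieldrin and 27.6% of DMSO members had one. The density ran the same way, with 18.3 dieldrin and 19.0 DMSO sites per 100 kb within 1 kb of the end and 4.02 dieldrin and 3.73 DMSO sites at 50 to 100 kb from it.

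**Figure D3:**
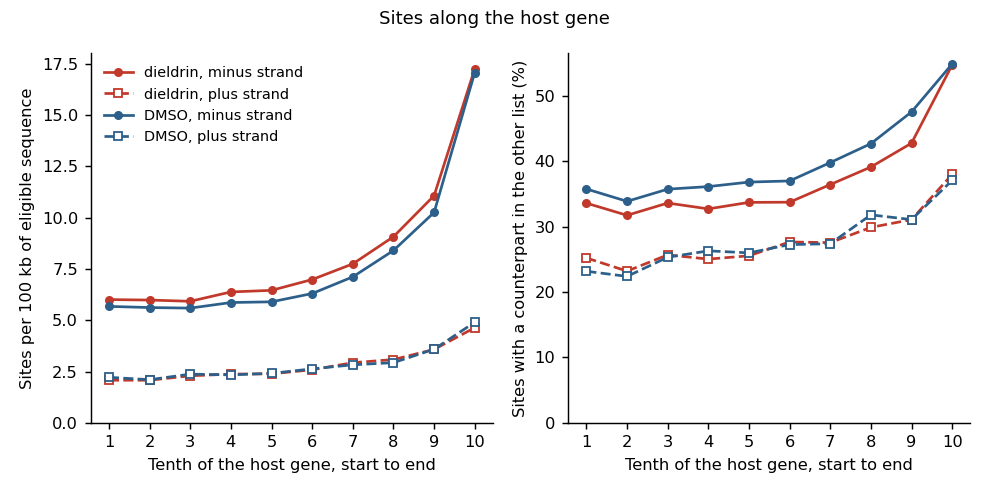
Sites per 100 kb of eligible sequence (left) and the percentage of sites with a counterpart in the other list (right) in each of 10 equal parts of the host gene from start to end (x axes), for the dieldrin list (red) and the DMSO list (blue), in minus-strand hosts (solid) and plus-strand hosts (dashed). In the last 10% minus-strand hosts reach 17.3 sites per 100 kb with dieldrin and 17.1 with DMSO, and 54.7% of dieldrin and 54.9% of DMSO sites there have a counterpart.

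A gene end often faces another gene. Stretches with an opposite-strand gene within 5 kb held 14.1 dieldrin and 13.95 DMSO sites per 100 kb, and the remaining stretches held 4.82 dieldrin and 4.57 DMSO sites. The higher density at the end was present in both kinds of stretch. Where an opposite gene lay within 5 kb, the last 10% held 24.4 dieldrin and 24.8 DMSO sites per 100 kb and the first 10% held 8.45 dieldrin and 8.03 DMSO sites. Where none did, the last 10% held 8.91 dieldrin and 8.89 DMSO sites and the first 10% held 3.41 dieldrin and 3.36 DMSO sites.

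The 2 lists differed in where along the gene the members lay. Within 1 kb of the gene end the dieldrin list held 3739 members against 3887 in the DMSO list, a ratio of 0.96. The ratio was 1.06 at 10 to 20 kb from the end, 1.09 at 100 to 200 kb and 1.12 beyond 500 kb. Measured from the start it did not run one way: it was 1.07 at 1 to 2 kb, 1.05 at 2 to 5 kb, 0.98 at 5 to 10 kb, 1.00 at 10 to 20 kb, 1.03 at 20 to 50 kb, 1.07 at 50 to 100 kb, 1.10 at 100 to 200 kb, 1.11 at 200 to 500 kb and 1.17 beyond 500 kb, where the dieldrin list had 962 members against 819 in the DMSO list. The ratio also differed over gene length. Among genes of mean 1000 or more, genes under 5 kb held 509 dieldrin and 530 DMSO members, a ratio of 0.96, and genes of 200 to 500 kb held 6715 dieldrin and 6150 DMSO members, a ratio of 1.09.

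Host genes were longer and had higher mean normalised counts, which are not divided by length, than other genes. Members fell in 12847 of the 26500 genes with an eligible stretch, 11220 of them in the dieldrin list and 11219 in the DMSO list. In 9592 hosts both lists had a member, 1628 had one in the dieldrin list only and 1627 in the DMSO list only. The median host was 38241 bp long with a mean normalised count of 1311, while the 13653 genes without a member had a median length of 10215 bp and a median mean of 0.79. Hosts of both lists had a median mean of 1801, against 50.2 for hosts of the dieldrin list only and 178 for hosts of the DMSO list only. A longer gene has more room for a site, and per 100 kb the order by length turned round. Among genes of mean 1000 or more, those under 5 kb held 47.6 dieldrin and 49.6 DMSO sites per 100 kb, and those of 500 kb or more held 4.85 dieldrin and 4.44 DMSO sites. By the gene types of GENCODE v29, matched by gene ID for 12569 hosts, 85.6% of hosts were protein coding, and these held 92.9% of dieldrin and 93.0% of DMSO members. Long noncoding genes made up 10.9% of hosts and held 5.31% of dieldrin and 5.18% of DMSO members.

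Members came in runs. The median host of the dieldrin list held 3 members and that of the DMSO list 4. The 836 hosts with 20 or more dieldrin members held 35.2% of that list, and the 750 hosts with 20 or more DMSO members held 30.8% of that list. Neighbouring members of 1 host lay a median of 1237 bp apart with dieldrin and 1325 bp with DMSO. Of the 100 hosts with most members, 90 were genes of the minus strand.

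RUNX1, a transcription factor of blood stem cells and T cells, held the most, 206 in the dieldrin list and 202 in the DMSO list (chr21:36160098-37376965, minus strand, hg19). Of these, 204 dieldrin and 199 DMSO members lay more than 950 kb from the start of this gene of 1217 kb, and the median member was 1107 kb from it with dieldrin and 1068 kb with DMSO. That start is the outer end of the body, and whether members lie at starts of shorter RUNX1 transcripts was not tested. HDAC4, a histone deacetylase (chr2:239969864-240323348, minus strand), held 182 dieldrin and 119 DMSO members, spread from its start to its end. CDK6, a cyclin D-dependent kinase of the G1 phase (chr7:92234235-92465908, minus strand), held 169 dieldrin and 111 DMSO members. WDPCP, a gene of ciliogenesis, held 125 dieldrin and 91 DMSO members. TBC1D5, which acts on the endosomal GTPase RAB7, held 106 dieldrin and 116 DMSO members, and its body also overlaps SATB1, a chromatin organiser of T cells, on the same strand. GNAQ, a G protein alpha subunit, held 101 dieldrin and 106 DMSO members, and SSBP2, a partner of LIM-domain transcription complexes, held 95 dieldrin and 86 DMSO members. NDST3, an enzyme of heparan sulphate synthesis (chr4:118954773-119179803), was the only plus-strand gene among these 8, with 110 dieldrin and 85 DMSO members. In the authors' deposited table none of the 8 was called with dieldrin, and their unshrunken fold changes of mRNA lay between 0.94 (TBC1D5) and 1.08 (WDPCP and RUNX1).

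Single stretches carried part of the difference between the lists. In CDK6, the densest 25 kb, which began 119 kb from the start, held 35 dieldrin members and 3 DMSO members. Stretches were ranked by dieldrin members plus DMSO members without a counterpart, which favours stretches rich in dieldrin members. The median CDK6 member lay 132 kb from the start with dieldrin and 177 kb with DMSO. In RUNX1 the densest 25 kb, from 955 kb, held 26 dieldrin and 29 DMSO members. In HDAC4 the densest 25 kb, from 112 kb, held 29 dieldrin and 19 DMSO members. When every host was cut into 25 kb windows from its start, 28245 windows held a member, 55 windows had at least 10 more dieldrin than DMSO members, and 6 had at least 10 fewer. By whole hosts, 192 had at least 10 more dieldrin members, 167 of them on the minus strand, and 52 had at least 10 fewer, 37 of them on the minus strand. The following genes were picked after their values had been seen. The largest differences per host after HDAC4 and CDK6 were in MTMR2, a phosphoinositide phosphatase, with 64 dieldrin and 27 DMSO members. BACH2, a repressor of effector genes in T cells, held 50 dieldrin and 20 DMSO members. On the other side stood RP5-1043L13.1 with 13 dieldrin and 36 DMSO members, and MDN1, an ATPase of ribosome assembly, with 66 dieldrin and 85 DMSO members. In the authors' deposited table the mRNA of MTMR2 was at 0.99 times its DMSO level with dieldrin, that of BACH2 at 1.00 and that of MDN1 at 0.86 (adjusted p = 0.113), and none was called.

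**Figure D4:**
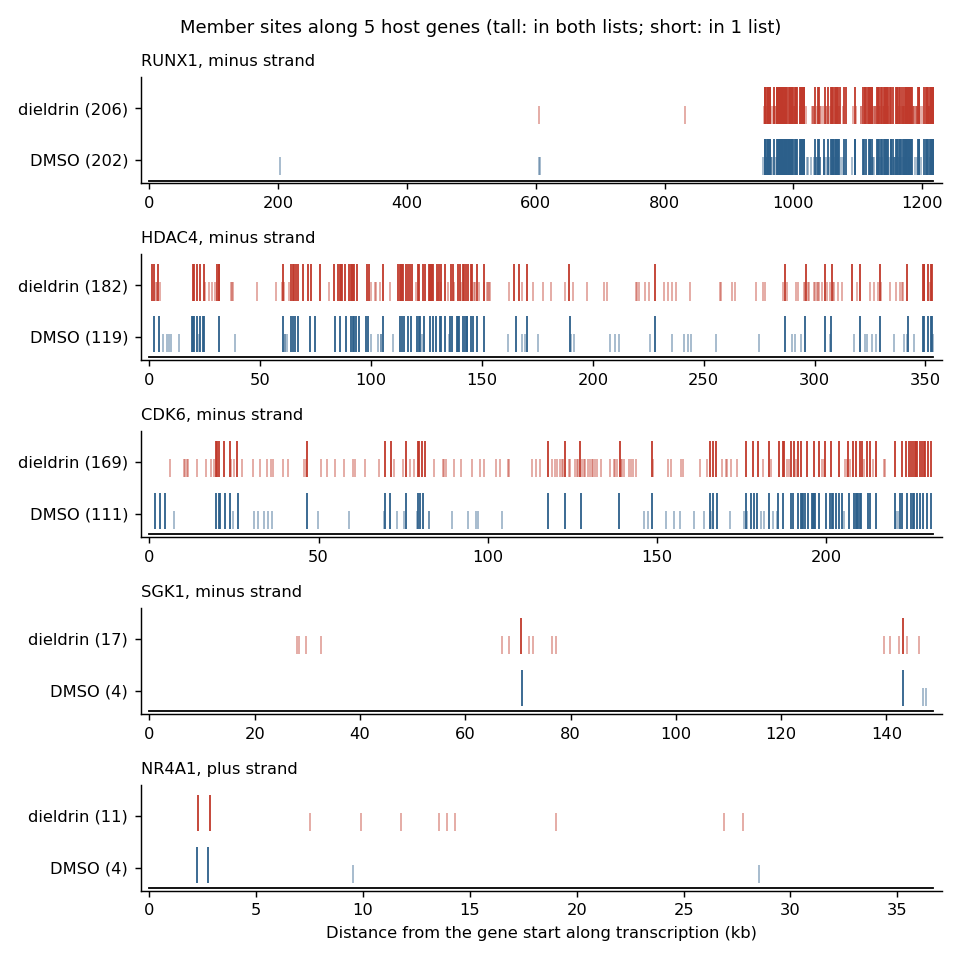
Middle of each member along 5 host genes (x axes, kb from the gene start along transcription), for the dieldrin list (red, upper row, number of members in brackets) and the DMSO list (blue, lower row); tall marks are members with a counterpart in the other list and short pale marks members without. In RUNX1 the marks of both lists crowd at the end of the gene, in CDK6 the dieldrin row is dense between 119 kb and 150 kb where the DMSO row is sparse, and SGK1 and NR4A1 have 17 and 11 dieldrin marks against 4 DMSO marks each.

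Genes of the T lineage were hosts at shares near those of other genes of like level, when length was not matched. Among all genes with an eligible stretch and a mean of 1000 to 10000, 89.0% were hosts, with 11.8 dieldrin and 11.4 DMSO sites per 100 kb. Of 35 transcription factors and regulators of T cell leukaemia, 30 of the 34 with an eligible stretch were hosts, at a median mean count of 4905, with 948 dieldrin and 819 DMSO members, or 18.2 dieldrin and 15.7 DMSO sites per 100 kb. RUNX1 (206 dieldrin, 202 DMSO) and CDK6 (169 dieldrin, 111 DMSO) held many of them. These hosts had a median length of 118418 bp, and 99.3% of all genes of mean 1000 or more and 100 to 200 kb were hosts. All genes together, at whatever level, had 5.47 dieldrin and 5.23 DMSO sites per 100 kb. LEF1, a high-mobility-group factor of early T cells, held 86 dieldrin and 73 DMSO members, and TOX, another such factor, held 94 dieldrin and 64 DMSO members. The strand split ran through this list: 21 minus-strand hosts held 929 dieldrin and 792 DMSO members, and 9 plus-strand hosts held 19 dieldrin and 27 DMSO members. More dieldrin than DMSO members were found in 14 of the 30 hosts and fewer in 13. Of 30 genes of T cell receptor signalling, 26 of the 28 with an eligible stretch were hosts, with 300 dieldrin and 248 DMSO members. THEMIS, which acts in thymocyte selection, held 57 dieldrin and 42 DMSO members. CD247, the zeta chain of the receptor complex, held 36 dieldrin and 32 DMSO members. The Src-family kinase FYN held 36 dieldrin and 18 DMSO members, and the adaptor SKAP1 held 30 dieldrin and 19 DMSO members. In this list 13 hosts had more dieldrin members, 3 had equal numbers and 10 had fewer.

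All 36 chromatin modifiers examined were hosts, with 727 dieldrin and 650 DMSO members. Their median length was 133884 bp and their median mean count 4415. Nearly all genes of like size and level were hosts too, 99.3% of those of mean 1000 or more and 100 to 200 kb. After HDAC4, the corepressor NCOR1 held 48 dieldrin and 42 DMSO members, and the histone H3K4 methyltransferase KMT2C 35 dieldrin and 31 DMSO members. The 18 minus-strand modifiers had 26.0 dieldrin and 22.8 DMSO sites per 100 kb, and the 18 plus-strand ones had 3.38 dieldrin and 3.35 DMSO sites. Very long genes, several of them at common fragile sites, held few members for their size. Of 24 such genes 22 were hosts, with 271 dieldrin and 244 DMSO members, or 0.83 dieldrin and 0.75 DMSO sites per 100 kb, at a median mean count of 68.1. EXOC4, a subunit of the exocyst on the plus strand, held 59 dieldrin and 68 DMSO members, and IMMP2L, a mitochondrial peptidase, held 50 dieldrin and 48 DMSO members. FHIT, at the fragile site of chromosome 3, held 27 dieldrin and 14 DMSO members, and AUTS2, a gene of neuronal development, held 15 dieldrin and 25 DMSO members. In this list the plus-strand genes had the higher density, 1.14 dieldrin and 1.17 DMSO sites per 100 kb, against 0.60 dieldrin and 0.43 DMSO sites in the minus-strand genes.

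Among hosts of mean 100 or more, the members found in both lists that lay farthest from a start were in LSAMP, a cell adhesion gene of the minus strand, and MAGI2, a scaffold protein gene. The farthest, at chr3:115528104-115528263 in the dieldrin list and chr3:115527874-115528277 in the DMSO list, lay 2188 kb from the start of LSAMP at a relative position of 0.997. A second pair lay beside it, at chr3:115528811-115529001 with dieldrin and chr3:115528810-115529001 with DMSO. The MAGI2 pair, at chr7:77649206-77649539 with dieldrin and chr7:77648821-77649228 with DMSO, lay 1434 kb from the start, at 0.998. Over the whole of LSAMP there were 47 dieldrin and 35 DMSO members, and in MAGI2 there were 2 dieldrin members and 1 DMSO member.

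Host genes were called at shares near those of all genes, except for lower calls with PMA, which were few and made up a smaller share of hosts. At an adjusted p under 0.05, the authors' deposited table called 141 of 11482 hosts with an adjusted p higher with dieldrin, or 1.23%, against 1.28% of all genes adjusted and 1.26% of genes with an eligible stretch. It called 132 hosts lower, or 1.15%, against 1.02% of all genes and 1.08% of genes with an eligible stretch. With PMA the authors' deposited table called 50 of 11135 hosts higher, or 0.449%, against 0.528% of all genes and 0.493% of genes with an eligible stretch. It called 1 host lower with PMA, or 0.00898%, against 0.0908% of all genes and 0.0571% of genes with an eligible stretch. Both comparisons share the DMSO libraries. Hosts with a member in the dieldrin list only had 23 higher and 8 lower calls with dieldrin among 1143 tested, and hosts with a member in the DMSO list only had 12 higher and 13 lower among 1274.

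Hosts whose mRNA was higher with dieldrin held more dieldrin members than DMSO members. The 141 hosts held 978 dieldrin and 839 DMSO members, a ratio of 1.17, and 73 had more dieldrin members, 21 had equal numbers and 47 had fewer. The ratio was 1.14 without ELMSAN1, a subunit of histone deacetylase complexes, which held 43 dieldrin and 21 DMSO members. The 132 hosts with lower mRNA held 894 dieldrin and 931 DMSO members, a ratio of 0.96, and 50 had more dieldrin members, 19 had equal numbers and 63 had fewer. Hosts that were not called stood between, with 72520 dieldrin and 69510 DMSO members, a ratio of 1.04. Of the hosts not called, 42.6% had more dieldrin members and 41.1% had fewer. The same shares were 51.8% and 33.3% among higher hosts, and 37.9% and 47.7% among lower hosts. By strand, the excess in the higher hosts lay in the 88 minus-strand genes, with 843 dieldrin and 701 DMSO members, while the 53 plus-strand genes had 135 dieldrin and 138 DMSO members. In the lower hosts it was the 66 plus-strand genes that had fewer with dieldrin, 206 against 259 with DMSO, and the 66 minus-strand genes had 688 dieldrin and 672 DMSO members.

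**Figure D5:**
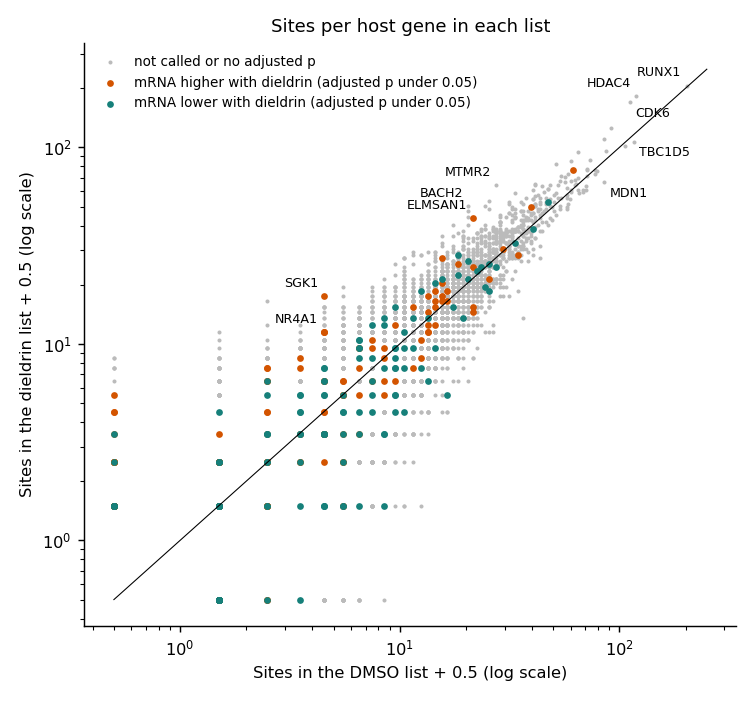
Members per host gene in the dieldrin list (y axis) against the DMSO list (x axis), each plus 0.5 on a log scale, with the line of equal numbers. Hosts whose mRNA was higher with dieldrin in the authors' deposited table are orange, those lower are teal and all others grey. HDAC4 (182 dieldrin, 119 DMSO), CDK6 (169 dieldrin, 111 DMSO) and MTMR2 (64 dieldrin, 27 DMSO) stand above the line, and MDN1 (66 dieldrin, 85 DMSO) below it.

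Immediate-early genes respond to stimulation without new protein synthesis. These and early response genes, taken as 1 list, gave the largest ratio of the 5 gene lists. Of 37 genes, 32 had an eligible stretch and 22 were hosts, with 86 dieldrin and 48 DMSO members, a ratio of 1.79. SGK1 (17 dieldrin, 4 DMSO) and NR4A1 (11 dieldrin, 4 DMSO) held a large part of the difference. More dieldrin members were found in 10 hosts, equal numbers in 7 and fewer in 5. Of the 20 hosts with an adjusted p in the authors' deposited table, 17 were higher with dieldrin and 12 of 19 were higher with PMA, with no lower call in either. Over all genes adjusted, 1.28% were higher with dieldrin and 0.528% with PMA. Genes of the list that were not hosts, FOS, JUNB and EGR1 among them, were also called higher with dieldrin, while IER5, BTG1 and ZFP36L2 were not called. The 17 are part of the higher hosts described above.

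SGK1, a serum- and glucocorticoid-regulated kinase (chr6:134490384-134639250, minus strand), held 17 dieldrin members and 4 DMSO members. Its dieldrin members lay in 3 groups, and 4 of them, between chr6:134606545-134606585 and chr6:134611061-134611555, were in a stretch 27.9 to 32.7 kb from the start where the DMSO list had none. SGK1 mRNA in the authors' deposited table was 2.71 times its DMSO level with dieldrin (adjusted p = 7.91e-27) and 5.24 times with PMA (adjusted p = 2.15e-78). NR4A1, an orphan nuclear receptor of activated T cells on the plus strand (chr12:52416616-52453291), held 11 dieldrin and 4 DMSO members, of which 2 in each list had a counterpart. Its mRNA in the authors' deposited table was 33.2 times the DMSO level with dieldrin (adjusted p = 4.56e-73). CD69, an early activation marker at the T cell surface, held 9 dieldrin and 6 DMSO members, at a fold change of 43.9 (adjusted p = 2.11e-232) in the authors' deposited table. EGR2, a zinc-finger factor induced by receptor signals, held 7 dieldrin and 3 DMSO members, with a fold change of 86.0 (adjusted p = 1.52e-102) in the authors' deposited table. The EGR2 body is 107905 bp long. Its dieldrin members lay 103.1 to 108.4 kb and its DMSO members 103.7 to 107.7 kb from the start. Whether they lie at starts of shorter EGR2 transcripts was not tested.

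Strong mRNA changes did not always come with unequal numbers of members. JUN, a subunit of the AP-1 factor, held 2 dieldrin and 2 DMSO members, and the anti-apoptotic gene MCL1 held 5 dieldrin and 5 DMSO members. The equal numbers in JUN were not the same sites. Its 2 DMSO members overlapped dieldrin sites that were not members, and its 2 dieldrin members had no counterpart. JUN in the authors' deposited table was at 38.8 times its DMSO level with dieldrin (adjusted p = 1.66e-246) and MCL1 at 2.94 times (adjusted p = 7.00e-111). NFKBIA, the inhibitor of NF-kappaB, held 4 dieldrin and 2 DMSO members. In the authors' deposited table NFKBIA was at 5.98 times the DMSO level with dieldrin (adjusted p = 6.14e-102). The bodies of JUN, MCL1 and NFKBIA are short, between 3239 bp (NFKBIA) and 5035 bp (MCL1), so the counts are small.

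Of the hosts with the smallest adjusted p among those lower with dieldrin, 5 of 6 held fewer dieldrin than DMSO members. Of all 132 hosts called lower, 47.7% did. CBX6, a Polycomb protein that reads histone H3 methylation, held 6 dieldrin and 13 DMSO members, and its mRNA was at 0.51 times the DMSO level (adjusted p = 9.92e-17) in the authors' deposited table. The receptor gene NOTCH2 held 18 dieldrin and 25 DMSO members, at 0.56 times (adjusted p = 5.27e-14) in the authors' deposited table. NOMO1, an endoplasmic reticulum membrane protein, held 1 dieldrin member and 4 DMSO members. PNPLA6, a phospholipase, held 2 dieldrin and 3 DMSO members, and WRB, a receptor for tail-anchored proteins, held 3 dieldrin and 4 DMSO members. ATP13A2, a lysosomal P-type ATPase, held 1 dieldrin member and no DMSO member. With dieldrin, the authors' deposited table has NOMO1 at 0.67, PNPLA6 at 0.40, WRB at 0.61 and ATP13A2 at 0.39 times the DMSO level. NOTCH1, also lower in the authors' deposited table (0.74 times, adjusted p = 0.0277), held 24 dieldrin and 27 DMSO members. NOTCH3, at 0.49 times (adjusted p = 3.18e-06) in the authors' deposited table, held 4 dieldrin and 9 DMSO members. These 3 NOTCH receptors were the hosts called lower in the leukaemia list.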

How the data were processed

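Jurkat RNA was sequenced from stranded, randomly primed, paired-end libraries, per the labels' design text. STAR, edgeR and hg19 are listed, without settings, in the submitters' processing notes. Not given in the sources used here are the site caller with its thresholds and use of strand, the counting tool and the gene annotation. The deposited site lists hold chromosome, start and end, and starts were printed counted from 1. Per the file headers, the authors' table for each treatment gives a mean normalised count per gene (a signal), shrunken and unshrunken log2 fold changes against DMSO, a standard error and Wald statistic (score columns), and a p-value with its adjusted p-value. The authors' column names are those that DESeq2 writes when it uses a fold-change prior. They were taken as deposited with a threshold of 0.05, and no model was fitted. No values per library were used, and the depth is unknown. CPM values are gene means scaled by their total over the table.

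Sites within 1000 bp of any gene start, in genes of both strands or in no gene were left out of the members. Of 44416 genes, 44194 lay on chromosomes 1 to 22 and X. The host was the longest overlapping gene, 1 bp of overlap counted as sharing, and density is sites per 100 kb of eligible stretch. The reference annotation is on another build, so only gene types were taken from it, and exons, introns and site sequences were not analysed here. Members that overlap several genes of one strand (3.52% of dieldrin and 3.58% of DMSO members) are credited to the longest. Named hosts followed a rule: the 8 hosts with most members; per list the 5 with most members found in it only (mean 100 or more); the 6 higher and 6 lower hosts of smallest adjusted p; the 5 farthest members of both lists; and up to 4 hosts per gene list. Of the hosts so named, 2 are not reported here. The members, gene lists and rule were chosen with earlier results of these data known. The alternatives were other distances, hosts, overlaps and thresholds. The scripts were tested on simulated sites. The work was done in Python 3.11.15 (pandas 2.3.3, numpy 2.4.6; intervals with scipy 1.17.1, figures with matplotlib 3.10.9).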

Additional observations from a re-analysis of the deposited data

How the results depend on the processing

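Of 61 alternatives, 34 left a value within its interval or, for counts, within 1.5 times. Sharing depended most on the overlap asked for, and with a gap allowed most members of both lists had a counterpart. It was 15.2% (dieldrin) and 15.9% (DMSO) when at least 50% of each site had to overlap, 55.3% (dieldrin) and 57.3% (DMSO) with a gap of up to 500 bp, and 31.3% (dieldrin) and 33.3% (DMSO) without the widest 25% of sites. The median relative position was 0.635 (dieldrin) and 0.637 (DMSO) with the host of highest mean, 0.638 for DMSO members in exactly 1 gene, 0.662 (dieldrin) and 0.666 (DMSO) beyond 5000 bp from a start, and 0.620 (dieldrin) and 0.625 (DMSO) with each host once. Counted per site, the median host length was 71720 bp (dieldrin) and 68964 bp (DMSO) and the median mean count 2495 (dieldrin) and 2583 (DMSO). At an adjusted p under 0.01, 91 hosts were higher and 74 lower with dieldrin and 0 were lower with PMA, and at 0.1 there were 3 lower with PMA. Among settings added after the data were seen, the minus-strand share was 73.6% (dieldrin) and 72.0% (DMSO) beyond 5000 bp, 75.9% (dieldrin) and 74.2% (DMSO) without the widest 25% of sites, and 68.9% (dieldrin) and 67.4% (DMSO) for sites of 300 bp or more. The cause of these shifts was not tested. A score threshold on sites was not run, since the lists hold no score. No library could be left out, since each list comes from 1. No paired analysis was possible because no values per library were used.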

Other observations

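Some hosts with many members had little poly(A) RNA. These genes were picked after their values had been seen, among hosts with a mean normalised count under 100. MIR181A1HG, the host transcript of the T cell microRNAs miR-181a and miR-181b (chr1:198776622-198906558), held 76 dieldrin and 77 DMSO members at a mean of 58.1. RP11-16L9.4, a long noncoding gene on chromosome 1 (chr1:198985262-199045864), held 55 dieldrin and 57 DMSO members at a mean of 25.2, which is 101 dieldrin and 104 DMSO sites per 100 kb. FTX, a long noncoding gene of the X chromosome, held 55 dieldrin and 54 DMSO members at a mean of 59.5. It is overlapped by 8 genes of the same strand, the highest at a mean of 330. The numbers in these 3 genes differed between the lists by 1 or 2 members. RP11-444A22.1, a long noncoding gene of chromosome 2 at a mean of 20.2, held 53 dieldrin and 25 DMSO members, and the same-strand gene that overlaps it had a mean of 5.30.

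Other hosts of low mean were also overlapped by a gene of higher mean on the same strand. AC079610.1, at a mean of 1.94, overlaps IKZF2, a zinc-finger factor of the Ikaros family, at 4059, and held 65 dieldrin and 41 DMSO members. IKZF2 held a further 64 dieldrin and 52 DMSO members credited to itself. RP11-12J10.3, at a mean of 7.501, overlaps FAM53B and METTL10, the higher at 2563, and held 58 dieldrin and 65 DMSO members. Members that overlap both genes are credited to the longer one.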
